A study of Mus musculus with 16 samples.

Results

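Formative stem cells (FS) were compared with epiblast stem cells (EpiSCs) grown in AF medium, by RNA sequencing of mouse cultures. The comparison was chosen by culture condition. It used the 6 libraries of condition A3XR and the 3 libraries of condition AF, which are 9 of the 16 libraries of the series. The FS libraries came from 2 lines, with passages 10, 12 and 14 of 5ar1 and passages 4, 5 and 12 of 5ar3. The AF libraries were passages 13, 14 and 15 of 1 line, AF32, so the medium and the line cannot be told apart. EpiSCs in condition AFX (passages 5, 8 and 12 of the line AFX6) and embryonic stem cells in condition 2iL (passages 12, 13, 15 and 20 of E14IV-C) shared the fit, and the AFX libraries are set beside the result where they bear on it. The labels give no strain, genotype or concentration, and they do not spell out the medium names. In this field A stands for activin, F for Fgf2, X for the tankyrase inhibitor XAV939, which dampens Wnt signalling, and R for an inhibitor of retinoic acid receptors. The FS medium would then lack added Fgf2 and hold inhibitors that the AF medium does not. The labels do not explain the 3 in A3XR, so the activin doses of the media cannot be compared. Passages of a line are not separate derivations, so p-values measure the spread between these cultures.

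The epiblast is the tissue of the early embryo that gives rise to the body. Cells taken from it can be held at different points between the naive state of the early blastocyst and gastrulation. EpiSCs resemble the gastrulating epiblast and often carry transcripts of the primitive streak, the structure through which cells leave to form mesoderm and endoderm. Streak genes are switched on by Nodal and Wnt signals. Nodal acts through activin receptors together with a coreceptor of the Cripto family, and it induces its own inhibitors, the Lefty proteins. Wnt stabilises beta-catenin, which works with TCF/LEF factors on targets such as Axin2, Sp5 and T. Formative cells are described as an intermediate that is competent for all germ layers without expressing such lineage genes.

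The genes whose difference is described below include textbook targets of both pathways, and 3 of their promoters are shown because they hold the letters CTTTGA, a core of the TCF/LEF binding motif. The windows run from 250 bases before to 50 bases after the RefSeq start on GRCm38.p6, and capitals mark CTTTGA or, read from the other strand, TCAAAG. The last window, of the retinoic acid receptor gene Rarb, holds the retinoid element GGTTCA and AGTTCA with 5 bases between them, which is in capitals as 1 run.
Sp5, chr2:70474673-70474972, plus strand: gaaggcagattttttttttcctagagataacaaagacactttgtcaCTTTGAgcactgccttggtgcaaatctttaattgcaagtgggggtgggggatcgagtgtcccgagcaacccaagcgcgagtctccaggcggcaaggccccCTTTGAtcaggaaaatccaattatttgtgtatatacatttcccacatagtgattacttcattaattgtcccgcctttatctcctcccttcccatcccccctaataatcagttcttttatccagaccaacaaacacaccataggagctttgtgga
T, chr17:8434173-8434472, plus strand: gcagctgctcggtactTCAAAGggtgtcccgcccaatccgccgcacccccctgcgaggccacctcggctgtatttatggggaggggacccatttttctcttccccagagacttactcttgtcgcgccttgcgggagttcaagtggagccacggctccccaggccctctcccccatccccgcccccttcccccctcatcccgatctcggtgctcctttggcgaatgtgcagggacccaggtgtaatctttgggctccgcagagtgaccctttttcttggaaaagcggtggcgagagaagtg
Dkk1, chr19:30549447-30549746, minus strand: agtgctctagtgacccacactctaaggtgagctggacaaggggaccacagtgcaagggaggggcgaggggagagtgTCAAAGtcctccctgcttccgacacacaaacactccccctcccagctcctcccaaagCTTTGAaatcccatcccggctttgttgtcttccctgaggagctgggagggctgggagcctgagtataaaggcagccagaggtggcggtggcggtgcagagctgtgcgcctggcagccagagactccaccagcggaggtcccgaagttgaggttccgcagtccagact
Rarb, chr14:16575427-16575726, minus strand: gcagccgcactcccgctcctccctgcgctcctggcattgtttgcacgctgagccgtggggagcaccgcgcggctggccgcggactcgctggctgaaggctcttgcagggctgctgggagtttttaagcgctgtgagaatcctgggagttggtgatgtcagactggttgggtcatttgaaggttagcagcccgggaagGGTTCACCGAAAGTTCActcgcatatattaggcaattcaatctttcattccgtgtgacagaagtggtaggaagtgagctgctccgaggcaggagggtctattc
CTTTGA occurred on either strand in 16% of all 32851 promoter windows of this length. It was present for 5 of the 11 Wnt target and feedback genes with a window, namely Dkk1, Lef1, Sp5, Sp8 and Tnfrsf19, against 18.2% of all 27025 genes with a window. The retinoid pair occurred in 2 windows (0.00609%). A match describes the letters only.

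Of 18555 genes tested, 3089 (16.6%) passed an adjusted p of 0.05, with 1455 (7.84%) higher and 1634 (8.81%) lower in FS. Chromosome 11 was set apart because its genes are raised as a block in AF32. Outside it, 2570 of 17159 genes (15%) were called, 1372 (8%) higher and 1198 (6.98%) lower in FS. On it, 519 of 1396 genes (37.2%) were called, 83 (5.95%) higher and 436 (31.2%) lower. The FS and AF libraries did not overlap for 3783 genes (20.4%). These shares are the background against which the counts below are read. Which direction held more calls depended on the scaling: by total counts 1341 were higher and 1066 lower (1258 and 789 outside chromosome 11), and with TMM factors computed without chromosome 11 the split outside it was 1232 higher and 1333 lower. The calls rest on 3 AF libraries: leaving out AF32 passage 13, 14 or 15 gave 1799, 1987 or 1982 calls, while leaving out any FS library gave 2710 to 3464. Total counts ran from 22069338 to 32043159 in the 9 libraries. Levels below are TMM-normalised counts scaled to 1000000 counts per library (CPM). Differences are FS minus AF in log2, with the standard error (SE) and the Benjamini-Hochberg adjusted p of edgeR's quasi-likelihood test. AF values are given in the order of passages 13, 14 and 15. A gene called below between FS and AF stayed called in that comparison when any 1 of the 9 libraries was left out, unless another adjusted p is given. In bulk RNA, fewer cells of a type and less RNA per cell cannot be told apart.

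Transcripts of the primitive streak and of early endoderm were far lower in FS. Outside chromosome 11, 8 of 13 tested streak and mesoderm genes were lower and 1 was higher, with a median difference of -3.37, and 9 of 11 endoderm genes were lower and none higher, with a median of -4.30. Over all genes outside chromosome 11, 6.98% were lower and the median was 0.06. In every fit that left out 1 library, 7 genes of each list stayed lower. The plot of streak, endoderm, Nodal and Wnt genes by library shows FS and AF apart for most of them.

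**Figure D1:**
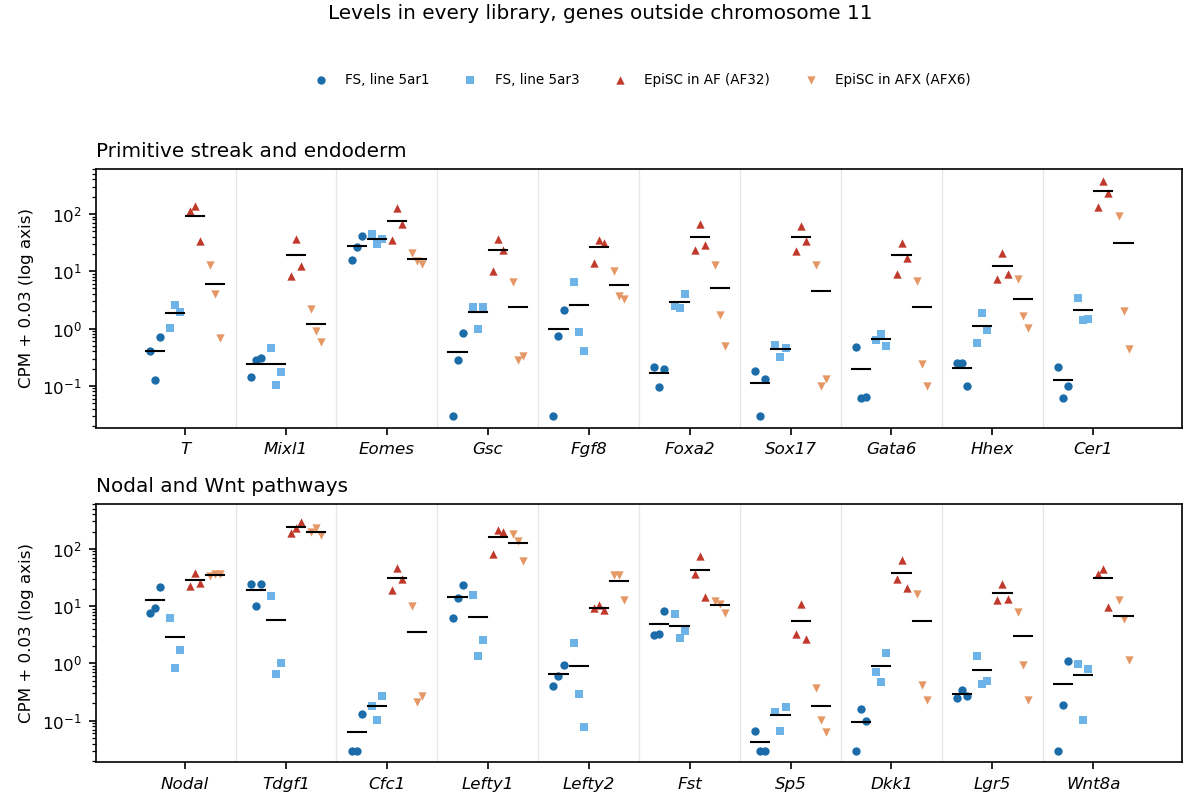
Levels of 20 genes outside chromosome 11 in every library of FS, AF and AFX, as CPM plus 0.03 on a log axis. Points are libraries and bars are the means of 3 libraries. T, Sox17, Cer1, Sp5 and Cfc1 in FS sit below every AF library, while Eomes levels of FS and AF overlap and Tdgf1 and Lefty1 stay high in AFX.

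T (brachyury), the transcription factor that marks the whole streak (chr17:8434423-8442496), ran from 0.0956 to 2.51 CPM in FS with a median of 0.833, and read 110.5, 136 and 33.3 CPM in AF. All 6 FS libraries lay below the lowest AF library, and the difference was -6.44 ± 0.79, adjusted p = 5.15e-05. Mixl1, a homeobox factor of the streak (chr1:180693043-180697034), had a median of 0.198 CPM in FS (0.0737 to 0.419) and 8.36, 36.9 and 12.3 CPM in AF (-6.46 ± 0.59, adjusted p = 2.15e-06). Nkx1-2, a homeobox gene of the posterior epiblast, lay between 0 and 0.643 CPM in FS (median 0.348) and at 21.9, 26.5 and 4.32 CPM in AF (-5.76 ± 0.62, adjusted p = 1.14e-05). For both genes no FS library reached an AF library. Gsc, the organizer gene goosecoid, fell from 10.1, 37.1 and 23.7 CPM in AF to at most 2.36 CPM in FS (-4.42 ± 0.89, adjusted p = 0.00261). Fgf8, a ligand that cells need to leave the streak, reached 6.55 CPM in passage 12 of 5ar3 and was at 0 in passage 10 of 5ar1, against 13.8, 34.4 and 31.5 CPM in AF (-3.91 ± 0.79, adjusted p = 0.00281). Pdgfra and Kdr, receptors of early mesoderm, differed by -3.37 and -3.80 (adjusted p = 0.00164 and 0.0011). Eomes, which acts in the streak and before it, was the exception among the well-known streak factors: FS held 15.5 to 45.3 CPM (median 33.1) and AF 35.3, 126 and 65.8 CPM, so that the groups overlapped. Its difference of -1.22 (adjusted p = 0.0222) was not called without AF32 passage 14 (adjusted p = 0.291). The 1 gene of this list called higher, Mesp2, rested on 3 counts in AF and 51 in FS, a ratio of 9.41 with a 95% counting interval of 3.04 to 47.1, and was not called without AF32 passage 13 (adjusted p = 0.0557), 14 (0.114) or 15 (0.0891).

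The endoderm genes were lower in FS in the same way. Cer1, a secreted antagonist of Nodal, BMP and Wnt made by anterior endoderm (chr4:82881751-82885148), read 134, 375 and 235 CPM in AF. In FS it ran from 0.0319 to 3.39 CPM with a median of 0.774, and the difference was -7.88 ± 1.22, adjusted p = 0.000334. Sox17, a factor that specifies definitive endoderm (chr1:4490931-4497354), had a median of 0.222 CPM in FS with a highest library of 0.495, against 22.2, 60.8 and 34.1 CPM in AF (-7.36 ± 1.1, adjusted p = 0.000252). Foxa2, a pioneer factor of endoderm and node, separated the FS lines as well: 5ar1 held 0.185, 0.0637 and 0.169 CPM and 5ar3 2.21, 4.004 and 2.44 CPM, and AF read 23.5, 66.0 and 28.3 CPM (-4.73 ± 0.95, adjusted p = 0.00249). Passage 14 of AF32 was the highest library for each of these 3 genes. Gata6, Gata4 and Hhex, further endoderm factors, differed by -5.61, -4.05 and -4.30 (adjusted p = 0.000781, 0.00164 and 0.000368), and Cxcr4, the chemokine receptor of migrating endoderm, by -3.80 (adjusted p = 0.00241). Foxa1 (-3.89, adjusted p = 0.0117) and Hnf4a (3 counts in FS and 161 in AF, a ratio of 97.0 with a counting interval of 32.6 to 475) were not called without AF32 passage 14 (adjusted p = 0.0659 and 0.0736). Trh, a hormone gene listed with the anterior endoderm, did not pass, at 2.95 to 46.4 CPM in FS and 10.9, 14.8 and 8.35 CPM in AF (adjusted p = 0.505). The 12 largest decreases outside chromosome 11 by the rule for named genes also held the zymogen gene Pga5 (-7.67, adjusted p = 0.00109), the protease inhibitor Spink1 (-7.26, adjusted p = 0.00127) and the forkhead factor Foxq1 (-7.49, adjusted p = 0.000174). Asb4, which encodes an ankyrin repeat protein, and Nt5e, the ecto-enzyme CD73, differed by -6.03 and -6.01 (adjusted p = 0.000292 and 7.47e-06).

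Along the Nodal pathway the ligands, the coreceptors and most inhibitors were lower in FS, while the receptors tested and most intracellular members did not pass the test. Of the ligands outside chromosome 11, 4 of 4 tested were lower (median -2.41), 2 of them in every fit that left out 1 library. Nodal itself (chr10:61417972-61425338) ran from 0.811 to 21.3 CPM in FS and read 22.1, 37.9 and 24.8 CPM in AF, a difference of -1.85 ± 0.57, adjusted p = 0.0363. The groups did not overlap, yet the call rested on every AF library: without passage 13, 14 or 15 the adjusted p was 0.0716, 0.156 or 0.0796, and it was 0.0512 without passage 10 of 5ar1 and 0.0562 without passage 12 of 5ar3. Gdf3, a TGF-beta ligand related to Nodal, was at 0.147 to 0.813 CPM (median 0.412) in FS and 3.38, 2.71 and 4.67 CPM in AF (-2.97 ± 0.33, adjusted p = 1.2e-05). Inhbb, which encodes an activin subunit, stayed at or under 0.0737 CPM in FS and read 1.32, 1.37 and 0.779 CPM in AF (-5.04 ± 0.78, adjusted p = 0.000278).

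Both coreceptors fell. Tdgf1, the Cripto coreceptor through which Nodal signals (chr9:110939603-110946158), held 24.1, 10.2 and 23.9 CPM in 5ar1 at passages 10, 12 and 14 and 0.626, 0.989 and 15.2 CPM in 5ar3 at passages 4, 5 and 12. All lay under the AF values of 191, 231 and 289.9 CPM, and the difference was -4.24 ± 0.69, adjusted p = 0.00051. Cfc1, the related Cryptic coreceptor (chr1:34535648-34544313), reached at most 0.236 CPM in FS against 19.1, 45.6 and 29.7 CPM in AF, the largest decrease outside chromosome 11 by the rule for named genes (-8.42 ± 1.06, adjusted p = 5.94e-05). The receptors Acvr1b, Acvr2a and Acvr2b did not pass, with differences of 0.43, -0.29 and 0.50 (adjusted p = 0.16, 0.223 and 0.0789). Of 5 tested inhibitors, 4 were lower, each in every fit that left out 1 library, with a median of -3.64. Lefty1 had 1.33 to 23.1 CPM in FS (median 9.96) and 81.0, 209 and 194 CPM in AF (-3.94 ± 0.63, adjusted p = 0.000423), and its neighbour Lefty2 0.0471 to 2.28 CPM (median 0.472) and 9.29, 10.2 and 8.63 CPM (-3.64 ± 0.50, adjusted p = 0.000113). Passages 4 and 5 of 5ar3 were the lowest FS libraries for both genes, and no FS library reached an AF library. Fst (follistatin), which binds activin, differed by -3.16 ± 0.43 (SE, adjusted p = 9.24e-05). Of the 10 intracellular effectors and targets 1 was higher and 1 lower, and neither stayed called in every fit that left out 1 library. Smad3, which carries the signal to the nucleus, did not pass, at 38.7 to 97.3 CPM in FS and 46.0, 48.8 and 50.2 CPM in AF (adjusted p = 0.249). Foxh1, its DNA-binding partner, was higher by 0.57 (adjusted p = 0.0174), but not without any 1 AF library (adjusted p = 0.0514, 0.0777 and 0.0717).

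Wnt ligands and part of the Wnt targets were lower in FS. Outside chromosome 11, 4 of 10 tested targets and feedback genes (median -1.17) and 5 of 7 ligands (median -2.25) were lower and none was higher. All 4 targets and 4 of the 5 ligands stayed lower when any 1 library was left out. Sp5, a factor induced directly by beta-catenin, was at most 0.141 CPM in FS and 3.21, 10.9 and 2.62 CPM in AF (-6.68 ± 0.64, adjusted p = 3.06e-06). Dkk1, a secreted Wnt antagonist that Wnt induces (chr19:30545863-30549665), ran from 0 to 1.51 CPM in FS (median 0.285) against 29.6, 64.3 and 20.9 CPM (-6.42 ± 1.08, adjusted p = 0.000663). Lgr5, the receptor of R-spondins, had 0.222 to 1.29 CPM (median 0.362) against 12.7, 24.4 and 13.02 CPM (-5.09 ± 0.74, adjusted p = 0.000153). None of these 3 overlapped between groups. Sp8 differed by -2.03 (adjusted p = 0.00136). Lef1, a gene of the factor family, did not pass at 8.55 to 37.7 CPM in FS and 32.1, 34.7 and 21.3 CPM in AF (adjusted p = 0.528), and neither did Nkd1 or Tnfrsf19 (adjusted p = 0.146 and 0.0722). Among the ligands, Wnt8a, which the streak makes, reached 1.08 CPM in FS and read 36.6, 44.9 and 9.80 CPM in AF (-5.92 ± 0.81, adjusted p = 0.000112). Wnt4, Wnt7b and Wnt11 differed by -2.44, -3.37 and -2.25 (adjusted p = 0.00187, 0.000187 and 0.00251). Of 13 Wnt receptors and secreted inhibitors 3 were lower and 1 higher. Fzd10 (-2.14, adjusted p = 0.000128) was the 1 that stayed called when any library was left out; the coreceptor Lrp6 did not pass (adjusted p = 0.278).

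Further Wnt genes sit on chromosome 11, where the raised block adds to the AF level. Axin2, the negative feedback gene of the pathway (chr11:108920349-108950783), was at 4.03 to 7.99 CPM in FS and 14.1, 22.7 and 12.2 CPM in AF (-1.52 ± 0.26, adjusted p = 0.000544). Its difference was -1.15 (adjusted p = 0.00594) after the level of its stretch of the chromosome was taken out. The ligand Wnt3 differed by -2.44 (adjusted p = 0.00114) and by -2.08 after that step (adjusted p = 0.00482). Tcf7, a TCF factor, differed by -1.39 (adjusted p = 0.000677) but by -0.30 after it (adjusted p = 0.467), so its call did not outlast the level of its stretch.

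The retinoid genes that passed were mostly lower in FS. Of 5 receptors outside chromosome 11, 1 was lower, which was Rarb, the receptor gene with the element shown above. It ran from 0.0319 to 1.27 CPM in FS and read 1.54, 4.35 and 2.34 CPM in AF (-2.56 ± 0.84, adjusted p = 0.0466), and 7 of the 9 fits that left out 1 library did not call it (adjusted p up to 0.208, without AF32 passage 14). Rarg did not pass, at 43.5 to 64.1 CPM in FS and 40.8, 35.8 and 43.5 CPM in AF (adjusted p = 0.212). Of 11 genes of retinoid metabolism and transport 4 were lower and 1 higher. Aldh1a2, the enzyme that makes retinoic acid in the early embryo, was at or under 0.114 CPM in every FS library and at 4.02, 1.05 and 1.03 CPM in AF (-5.24 ± 0.66, adjusted p = 4.05e-05). Cyp26a1, which breaks retinoic acid down and is induced by it, held 0.0741, 0 and 0.0339 CPM in 5ar1, 6.93, 8.57 and 0.685 CPM in 5ar3 at passages 4, 5 and 12, and 36.6, 98.8 and 45.0 CPM in AF (-4.50 ± 1.25, adjusted p = 0.0207). It was not called without AF32 passage 14 (adjusted p = 0.0895). Crabp2, a carrier of retinoic acid, was higher (2.01, adjusted p = 0.0294), but not without AF32 passage 14 (adjusted p = 0.127) or 15 (0.112). Of the 18 Hox genes listed 4 passed the filter on low counts and 1 was called lower. Among those filtered out, Hoxb1 had 0 counts in FS and 103 in AF, Hoxb2 had 2 and 159, Hoxb3 had 3 and 66, and Hoxa2 had 0 and 58, without a test. These totals pool the libraries of a group and do not show how evenly the AF passages carried them. The tested Hox genes summed to between 0.106 and 1.58 CPM in the AF libraries. The Hoxb genes lie on chromosome 11, which is set apart.

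Some FGF and BMP genes were lower in FS and most did not pass the test. Of 11 FGF ligands and receptors outside chromosome 11, 3 ligands were lower and 1 receptor higher. The ligands were Fgf8, given above, Fgf10 (0 to 0.518 CPM in FS, 3.54, 5.56 and 3.50 CPM in AF, -5.46 ± 0.91, adjusted p = 0.000508) and Fgf17 (0.0471 to 1.66 CPM, 5.46, 3.89 and 3.82 CPM, -2.76 ± 0.57, adjusted p = 0.00281). The main receptor Fgfr1 did not pass (adjusted p = 0.444), and Fgfr4, called higher, rested on 2 counts in AF and 65 in FS, with a ratio of 17.99 and a counting interval of 4.78 to 152. It was not called without AF32 passage 14 (adjusted p = 0.0628). Of 12 genes outside chromosome 11 that respond to FGF and ERK, some of which dampen them, 4 were lower and none higher. Their median was -0.92, and 3 stayed lower when any library was left out. Dusp4, a phosphatase of ERK, had 4.99 to 15.2 CPM in FS (median 7.48) and 41.4, 42.8 and 25.7 CPM in AF (-2.16 ± 0.40, adjusted p = 0.00124). Dusp5 and Spred1 differed by -1.34 and -0.82 (adjusted p = 0.00215 and 0.00133). Spry2 and Spry4, commonly read as FGF targets, did not pass (adjusted p = 0.074 and 0.246). Neither did Etv4, another such target, which lies in the fourth stretch of chromosome 11 (adjusted p = 0.293). Of 16 BMP pathway and Id genes 6 were lower and none higher, of which 2 stayed lower when any library was left out. These 2 were the ligand Bmp2 (0 to 1.104 CPM in FS, 9.64, 18.7 and 12.8 CPM in AF, -4.75 ± 0.91, adjusted p = 0.00166) and its antagonist Chrd, chordin (1.08 to 4.30 CPM, 24.3, 35.3 and 34.0 CPM, -3.63 ± 0.45, adjusted p = 3.78e-05). The BMP antagonist Nog (noggin), on chromosome 11, differed by -3.24 and by -2.88 with the level of its stretch taken out (adjusted p = 0.00201 and 0.00572). Id1, a BMP target, differed by -1.95 (adjusted p = 0.00865) and was not called without AF32 passage 14 (adjusted p = 0.0811).

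Most pluripotency genes did not pass the test. Against the labelled cell types, the core factors were present in all 9 libraries, and the naive markers Zfp42, Prdm14 and Dppa3 had 7, 2 and 1 counts in all of FS and 11, 5 and 0 in all of AF. Of 11 core genes outside chromosome 11, 1 was higher and 1 lower (median 0.47). Sox2, a core factor that also maintains neural progenitors, ran from 39.3 to 96.2 CPM in FS (median 82.9) and read 34.3, 40.9 and 21.8 CPM in AF. The lowest FS library was below AF32 passage 14, and the difference was 1.26 ± 0.25, adjusted p = 0.00192. Pou5f1, which encodes Oct4, held 758, 930.3 and 1279 CPM in 5ar1, 345, 470.2 and 549.7 CPM in 5ar3 and 528, 506 and 532 CPM in AF, and did not pass (adjusted p = 0.298). Nanog was lower, with 88.8 to 158 CPM against 189, 202 and 255 CPM (-0.77 ± 0.20, adjusted p = 0.012), but not without AF32 passage 15 (adjusted p = 0.0867). Of 13 naive genes 3 were lower and 1 higher. Klf5, a Kruppel-like factor, was at 1.18 to 2.63 CPM in FS and 12.6, 6.44 and 10.5 CPM in AF (-2.27 ± 0.26, adjusted p = 1.49e-05), and Klf2 and Gbx2, under 2 CPM in all 9 libraries, differed by -2.05 and -2.84 (adjusted p = 0.000639 and 0.00154). Nr0b1 was higher with 145 counts in FS and 1 in AF, a ratio of 80.3 with a counting interval of 14.2 to 3192.

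Genes known from the formative epiblast were expressed in both groups. Of 11 tested, 2 were higher and 1 lower in FS, with a median of 0.42. Sall2, a zinc finger factor, had 111 to 176 CPM in FS (median 157) and 38.0, 47.8 and 45.2 CPM in AF (1.79 ± 0.24, adjusted p = 6.82e-05), and it was the 1 gene of the list called in every fit that left out 1 library. Otx2, the factor that drives the exit from the naive state, ran from 133 to 215 CPM in FS against 88.7, 190.4 and 145 CPM in AF (adjusted p = 0.407). Fgf5, the classical marker of the epiblast after implantation, ran from 34.0 to 115 CPM against 90.7, 125 and 141 CPM (adjusted p = 0.0913). The methyltransferase genes Dnmt3a and Dnmt3b did not pass either (adjusted p = 0.105 and 0.142). None of 11 tested genes of DNA methylation and the PRC2 complex outside chromosome 11 was called. Beyond Sall2, most formative genes overlapped between the groups or did not pass.

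**Figure D2:**
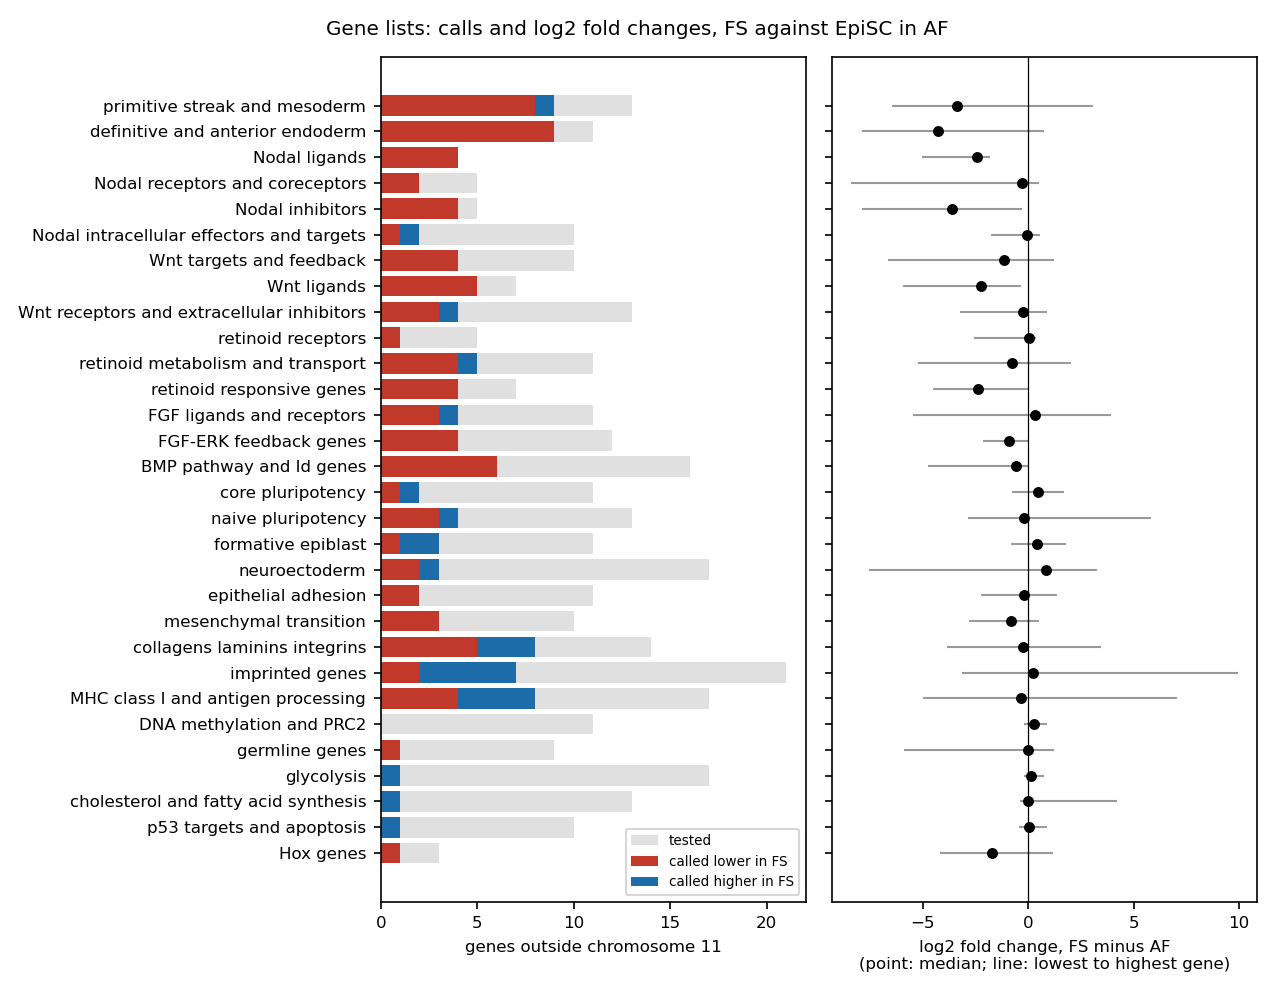
Left, number of tested genes outside chromosome 11 in each of 30 gene lists, with those called lower and higher in FS than in AF. Right, the median log2 difference of each list as a point and its lowest to highest gene as a line. The endoderm list has the lowest median of these lists, with 9 of 11 genes lower, and the DNA methylation and PRC2 list has no called gene.

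Neuroectoderm genes split the FS lines. Of 17 tested outside chromosome 11, 1 was called higher and 2 lower, and over all FS libraries the median was 0.86. Six3, a factor of the anterior neural plate, held 0.111, 0.127 and 0.169 CPM in 5ar1 and 7.96, 9.19 and 7.99 CPM in 5ar3, with 0.193, 1.01 and 0.248 CPM in AF, and did not pass over both lines (adjusted p = 0.145). Between the lines it differed by -5.89 (5ar1 minus 5ar3, adjusted p = 0.000772). Sox1, the earliest marker of neural fate, showed the same order, with 1.19, 1.31 and 1.05 CPM in 5ar1, 27.3, 22.9 and 18.5 CPM in 5ar3 and 10.4, 5.36 and 3.57 CPM in AF (5ar1 minus 5ar3 -4.27, adjusted p = 0.000885). The lines differed for 12 of these 17 genes, all lower in 5ar1, where 3.88% of all genes differed between the lines in either direction. Against AF, 6 of the 17 genes were lower in 5ar1 and none higher, while 9 were higher in 5ar3 and 1 lower. Over all genes, 9.4% were lower and 7.77% higher in 5ar1 than in AF, and 8.67% lower and 7.8% higher in 5ar3. Lhx2 was called higher over both lines (3.23 ± 0.97, adjusted p = 0.0294) but was not called without any 1 AF library (adjusted p = 0.105, 0.112 and 0.0894) and without passage 12 of 5ar3 (0.0543), and its level in 5ar1 (0.408, 0.159 and 0.339 CPM) was near that of AF (0.225, 0.163 and 0.248 CPM).

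The epithelial genes split the lines the other way. Cdh1, which encodes E-cadherin (chr8:106603351-106670246), held 369, 278 and 391.9 CPM in 5ar1, 91.2, 44.2 and 46.7 CPM in 5ar3 at passages 4, 5 and 12, and 375, 286 and 363 CPM in AF. The 5ar1 and AF levels overlapped, and 5ar3 lay below both. The difference 5ar1 minus 5ar3 was 2.51 (adjusted p = 8.27e-05). Outside chromosome 11, 2 of 11 tested epithelial genes were lower in FS than in AF (6.98% over all genes there) and none higher. When any library was left out, 1 stayed lower. The counts by line include Cldn7, on chromosome 11. Of 12 tested genes 11 were higher in 5ar1 than in 5ar3, where 3.88% of all genes differed either way. Among them was Rab25, a GTPase of epithelial membrane traffic (6.81, adjusted p = 3.22e-07). Against AF, 4 of the 12 were higher and 1 lower in 5ar1, and 11 were lower and none higher in 5ar3. Over all genes, 7.77% were higher and 9.4% lower in 5ar1 than in AF, and 8.67% were lower in 5ar3. Zeb2, a repressor of E-cadherin, held 12.4, 16.6 and 12.5 CPM in 5ar1, 84.2, 82.2 and 52.5 CPM in 5ar3 and 44.5, 44.2 and 24.8 CPM in AF (5ar1 minus 5ar3 -2.40, adjusted p = 0.000885). The keratin gene Krt8 was lower in both lines than in AF, at 52.7, 39.5 and 68.6 CPM in 5ar1 and 20.9, 13.2 and 16.9 CPM in 5ar3 against 195, 177 and 123 CPM (-2.22 ± 0.42, adjusted p = 0.00147).

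Mesenchymal genes that passed were lower in FS, while matrix genes were called in both directions. Of 10 mesenchymal genes outside chromosome 11, 3 were lower and none higher, each in every fit that left out 1 library. Vim (vimentin) ran from 185 to 444 CPM in FS (median 279) and read 811, 531 and 535 CPM in AF (-1.11 ± 0.21, adjusted p = 0.00149). Twist1, a mesodermal factor, and Mmp14, a membrane protease, differed by -2.84 and -1.35 (adjusted p = 0.000211 and 0.000226). Of 14 collagen, laminin and integrin genes outside chromosome 11, 5 were lower and 3 higher, with a median of -0.27. When any library was left out, 2 stayed lower and 2 stayed higher. On chromosome 11, Itga3 and Col1a1 differed by -2.20 and -2.77, and by -1.84 and -2.41 with the level of their stretch taken out (adjusted p = 0.000837 and 0.00314). The fibrillar collagen gene Col3a1 had 0.259 to 1.60 CPM in FS and 20.9, 4.31 and 10.2 CPM in AF (-3.88 ± 0.48, adjusted p = 4.01e-05), and Col1a2 differed by -1.91 (adjusted p = 0.00202). Col18a1, a basement membrane collagen, went the other way with 161 to 231 CPM (median 172) against 83.6, 71.7 and 80.3 CPM (1.20 ± 0.16, adjusted p = 9.36e-05), as did Col5a2 (3.46, adjusted p = 0.00202).

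**Figure D3:**
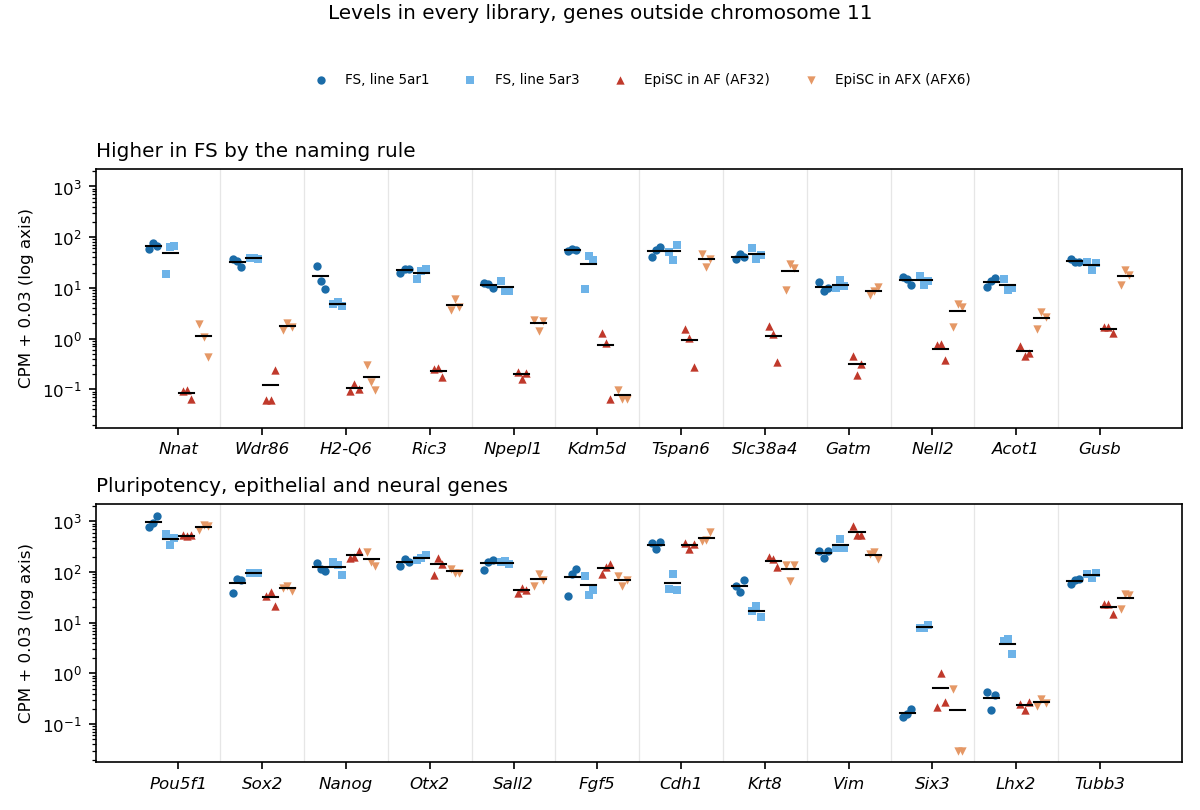
Levels of 24 genes outside chromosome 11 in every library of FS, AF and AFX, as CPM plus 0.03 on a log axis. Points are libraries and bars are the means of 3 libraries. By the rule that chose them, the 12 genes of the upper panel are above every AF library in all 6 FS libraries. In the lower panel Cdh1, Six3 and Lhx2 separate line 5ar3 from 5ar1.

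The genes with the largest increases outside chromosome 11 came from no single list. Nnat, an imprinted gene for a small membrane proteolipid (chr2:157560078-157562522), read 0.0643, 0.0654 and 0.0354 CPM in AF and 18.7 to 77.9 CPM in FS (median 65.3), a difference of 9.93 ± 0.73, adjusted p = 2.68e-07. Wdr86, a WD repeat gene (chr5:24711738-24730727), had 26.3 to 38.8 CPM (median 36.9) against 0.0321, 0.0327 and 0.212 CPM (8.54 ± 0.57, adjusted p = 8.5e-08). Ric3, a chaperone of acetylcholine receptors, had 15.2 to 23.8 CPM (median 22.3) against 0.225, 0.229 and 0.142 CPM (6.69 ± 0.31, adjusted p = 1.25e-09). Each of these was near 0 in all 3 passages of AF32 and present in both FS lines. The metabolic genes Gusb, which encodes beta-glucuronidase, Gatm, the first enzyme of creatine synthesis, Acot1, an acyl-CoA thioesterase, and Npepl1, an aminopeptidase, differed by 4.35, 5.23, 4.52 and 5.98 (adjusted p = 1.09e-08, 3e-08, 2.99e-06 and 9.71e-09). Gusb was among the tightest of them, at 21.995 to 36.3 CPM in FS and 1.64, 1.63 and 1.27 CPM in AF. Tspan6, an X-linked tetraspanin, and Nell2, a secreted protein of neural tissue, differed by 5.82 and 4.52 (adjusted p = 5.15e-06 and 1.33e-05). Kdm5d, a Y-linked demethylase, held 54.2, 58.5 and 54.6 CPM in 5ar1, 42.0, 35.3 and 9.40 CPM in 5ar3 at passages 4, 5 and 12 and 1.29, 0.784 and 0.0354 CPM in AF (5.89 ± 0.89, adjusted p = 0.000278). The other expressed Y genes Uty, Eif2s3y and Ddx3y were present in all 9 libraries and did not pass (adjusted p = 0.515, 0.573 and 0.308).

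Imprinted genes and antigen processing genes both held calls in both directions. Of 21 imprinted genes outside chromosome 11, 5 were higher and 2 lower, and 3 and 1 of these stayed called when any library was left out. Beside Nnat these were Slc38a4, an amino acid transporter (37.1 to 60.0 CPM in FS, 1.77, 1.18 and 0.318 CPM in AF, 5.32 ± 0.47, adjusted p = 1.67e-06), the noncoding H19 (26.3 to 248 CPM, 8.78, 6.08 and 2.65 CPM, 3.99 ± 0.93, adjusted p = 0.00746) and, lower in FS, the retrotransposon-derived Peg10 (9.60 to 24.9 CPM, 191, 133 and 123 CPM, -3.15 ± 0.46, adjusted p = 0.000187). The noncoding Meg3 and Rian of the imprinted cluster on chromosome 12 did not pass (adjusted p = 0.635 and 0.171). Of 17 MHC class I and antigen processing genes outside chromosome 11, 4 were higher and 4 lower, and 1 and 4 of these stayed called when any library was left out. The 1 kept higher call was H2-Q6. H2-Q6, a class Ib gene, had 4.29 to 27.6 CPM in FS (median 7.41) and 0.0643, 0.0981 and 0.0708 CPM in AF (7.05 ± 0.80, adjusted p = 1.52e-05). It has near-identical neighbours in the Q region, so its reads may be shared among copies. The immunoproteasome gene Psmb8 went down from 16.9, 10.9 and 10.97 CPM in AF to 0.111 to 1.07 CPM in FS (-4.98 ± 0.45, adjusted p = 1.83e-06), and Psmb10, Tap2 and Tapbp, which cut peptides or load them onto class I molecules, differed by -1.56, -2.27 and -1.49 (adjusted p = 0.00343, 0.000169 and 0.000198).

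Metabolic and survival lists held few calls. Of 17 glycolysis genes 1 was higher and none lower (median 0.11), and of 13 genes of cholesterol and fatty acid synthesis outside chromosome 11, 1 was higher and none lower. Neither call held in every fit that left out 1 library. Insig1 and Scd1, both controlled by sterol and lipid levels, split the FS lines: Insig1 held 1.26, 0.606 and 0.542 CPM in 5ar1, 74.6, 45.4 and 67.8 CPM in 5ar3 and 2.83, 1.93 and 0.389 CPM in AF (5ar1 minus 5ar3 -6.30, adjusted p = 2.13e-06). Scd1 held 2.002, 3.47 and 3.11, 52.2, 40.9 and 152 and 8.45, 6.83 and 3.93 CPM in the same order (-4.83, adjusted p = 7.1e-06). Of 10 p53 targets and apoptosis genes outside chromosome 11, 1 was higher, and it was not called without any 1 AF library. Of 9 germline genes 1 was lower, which was Prdm1, also a gene of endoderm, at 0.0368 to 0.381 CPM in FS and 3.76, 15.4 and 6.76 CPM in AF (-5.89 ± 0.62, adjusted p = 7.54e-06).

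Some markers of other cell types moved with the groups. The summed level of 7 tested fibroblast markers was 20.4 to 45.0 CPM in FS and 43.7 to 89.5 CPM in AF, with 4 of 7 lower. Without Col1a1, on chromosome 11, it was 19.6 to 42.7 CPM and 37.8 to 72.1 CPM, with 3 of 6 lower. Thy1 was higher in FS (3.62, adjusted p = 3.15e-06), and Lum and S100a4 were at 4 and 0 counts in FS and 7 and 1 in AF. That of 7 tested trophoblast markers was 25.6 to 53.9 CPM in FS and 46.6 to 145 CPM in AF, mostly Eomes (25.6 to 53.9 and 45.7 to 144 CPM without Hand1, on chromosome 11), and Elf5 was at 0 counts in FS and 17 in AF. Outside chromosome 11, 4 of 6 trophoblast markers were lower and 1 higher, and 1 stayed lower when any library was left out. The 7 tested markers of extraembryonic endoderm summed to 310 to 574 CPM in FS and 601 to 798 CPM in AF. Most of that gap was Sparc, in the second stretch of chromosome 11: without it the sums of the groups overlapped, at 149 to 293 CPM in FS and 237 to 275 CPM in AF. Single genes still differed: of the 6 outside chromosome 11, 3 were lower in FS and 1 higher, with a median of -1.58. Over all genes outside chromosome 11, 6.98% were lower. When any library was left out, 2 of these genes stayed lower and none stayed higher. The defining genes Afp and Ttr were at 1 and 0 counts in FS and 7 and 2 in AF. The 3 tested blood and endothelium markers summed to 0.556 to 0.952 CPM in FS and 2.87 to 3.60 CPM in AF (0.111 to 0.419 and 2.09 to 3.30 CPM without Pecam1, on chromosome 11), with Hbb-y at 0 counts in all 9 libraries. Mitochondrial transcripts took 11.9 to 27.9% of counts in FS and 19.6 to 25.7% in AF, and 10 of 26 tested mitochondrial genes were lower in FS. Of the neuron markers, Tubb3, a neuronal tubulin, was higher (1.91, adjusted p = 0.00211) and Stmn2 lower (-1.05, adjusted p = 0.00202). The stress genes Hspa1a and Hspa1b were higher in FS (3.70 and 1.81, adjusted p = 8.17e-05 and 0.00618). The part of these levels in the results above was not tested.

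Chromosome 11 was raised in AF32 in steps along its length. For genes with a mean of at least 5 CPM, the median log2 ratio to the FS mean was 0.41, 0.45 and 0.45 in the AF libraries, and between -0.12 and 0.18 for every other autosome and X. The AFX libraries showed no such rise. The median difference of tested genes was -0.39 on chromosome 11 and between -0.13 and 0.16 on the other 19 chromosomes. In the plot, chromosome 11 in gene order is divided into 4 stretches, a number that was set and not estimated. Their borders were drawn from these values and are a description.

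**Figure D4:**
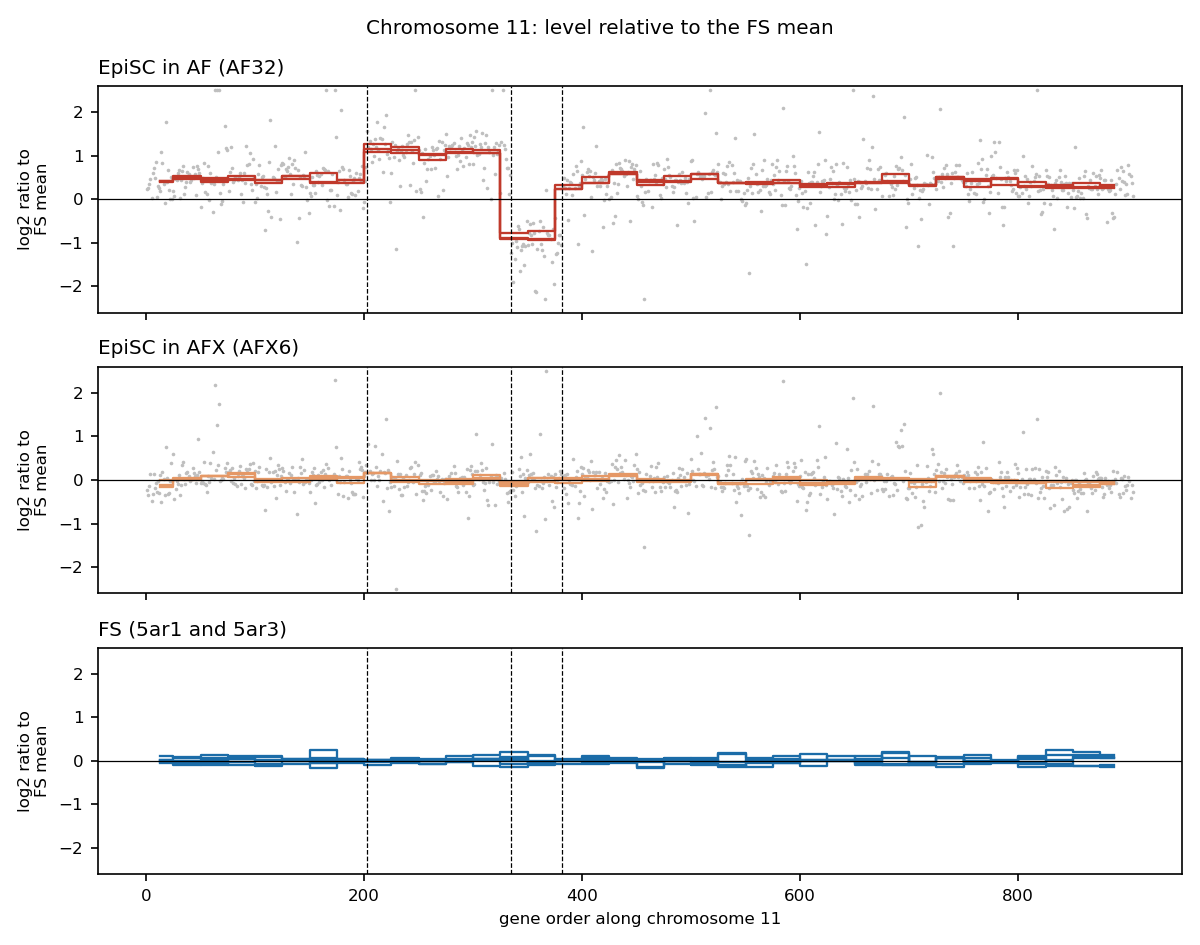
Log2 ratio to the FS mean of genes with at least 5 CPM in their order along chromosome 11. Grey points are single genes as group means (limited to 2.5 in either direction), coloured lines are medians of 25 genes in each library, and dashed lines are the borders of 4 stretches. AF32 steps from 0.45 to 1.09, then to -0.99 and back to 0.39, while AFX and FS stay near 0.

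The first stretch (chr11:3125904-51763634, Pisd-ps1 to Sec24a) held 202 genes with a level and lay at 0.43 to 0.48 in the AF libraries, a ratio of 1.37. The second (chr11:51763687-69061578, Sar1b to Borcs6) held 132 genes at 1.06 to 1.14, a ratio of 2.13. The third (chr11:69070806-70614483, Tmem107 to Mink1), 1.54 Mb long with 47 genes, lay at -1.03 to -0.96, a ratio of 0.50. The fourth (chr11:70644196-121673153, Slc25a11 to B3gntl1) held 524 genes at 0.37 to 0.42, a ratio of 1.31. The borders were drawn from the same values, so the counts that follow describe the stretches and do not test them. In the second, 129 of 132 genes were above the FS mean, and in the third 46 of 47 were below it. Of tested genes, 94 of 309 in the first stretch and 138 of 218 in the second were called lower in FS. In the fourth 203 of 796 were called lower, and in the third 53 of 73 were called higher. After the level of each stretch was taken out, a step chosen after seeing the data, 214 genes of chromosome 11 were called, 115 higher and 99 lower. With 1 median taken out for the whole chromosome, 343 were called, 161 higher and 182 lower. All 3 passages of AF32 carried the pattern, so that on chromosome 11 the level of the stretch and the difference between the cultures cannot be told apart gene by gene.

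Several named genes of chromosome 11 differed by more than the level of their stretch. Lhx1, a homeobox factor of the streak and anterior endoderm (chr11:84518284-84525535), had 0.0741 to 1.62 CPM in FS (median 0.361) and 48.1, 157 and 93.3 CPM in AF (-7.20 ± 1.04, adjusted p = 0.000185), and -6.84 after its stretch was taken out (adjusted p = 0.000331). Foxj1, a factor of motile cilia as in the node, and Pkd1l1, a protein of node cilia, differed by -4.20 and -6.13 and after that step by -3.83 and -5.69 (adjusted p = 2.14e-05 and 0.000673). The guidance factor gene Ntn1 and the heparan sulfate enzyme gene Hs3st3b1 lie in the second stretch and differed by -4.66 and -5.87, and by -3.58 and -4.79 after it (adjusted p = 0.00161 and 0.0011). The imprinted Grb10 was at 1447, 1667 and 1551 CPM in AF and 608 to 779 CPM in FS, -1.17 before and -0.74 after (adjusted p = 0.000962 and 0.0278). Of the 5 largest increases, Ybx2, Fgf11, Nlgn2 and Per1 lie in the third stretch and Sez6 in the fourth. The clock gene Per1 differed by 2.32 (adjusted p = 0.00113) and by 1.18 after its stretch was taken out (adjusted p = 0.0659). Trp53, the gene of p53, also lies in the third stretch (chr11:69580359-69591873): it ran from 86.3 to 192 CPM in FS (median 163) and read 81.3, 72.3 and 53.01 CPM in AF (1.09 ± 0.24, adjusted p = 0.00464). With its stretch taken out, the difference was -0.03 (adjusted p = 0.953).

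**Figure D5:**
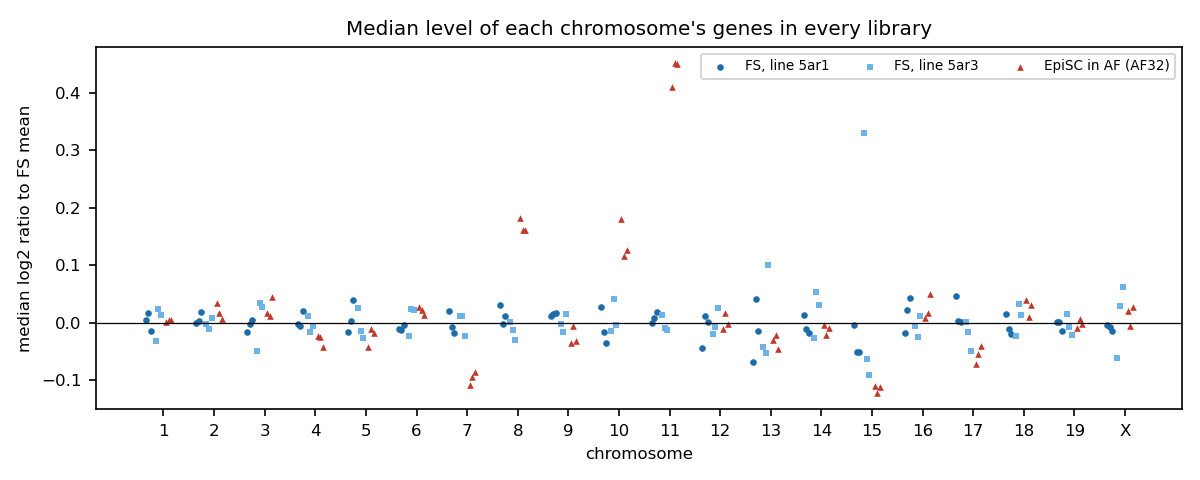
Median log2 ratio to the FS mean of genes with a mean of at least 5 CPM on each chromosome, 1 point per library. The 3 AF32 libraries reach 0.41 to 0.45 on chromosome 11 and 0.12 to 0.18 on chromosomes 8 and 10, and passage 12 of 5ar3 stands at 0.33 on chromosome 15.

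Shifts were also seen on other chromosomes. In AF32 chromosome 8 stood at 0.16 to 0.18 and chromosome 10 at 0.12 to 0.18. Outside chromosome 11, 18 of 406 windows of 25 genes were above 0.2 in AF32, of which 8 lay on chromosome 8 and 6 on chromosome 10, and none was above 0.5. A further 16 were below -0.2. Of these, 2 neighbouring windows of chromosome 13, in which 22 and 24 of 25 genes were Hist1 histone genes, whose near-identical copies can share reads, lay at -0.83 and -0.85, near the level of the third stretch of chromosome 11. The FS libraries themselves spread from -0.58 to 0.89 over these windows. Within FS, passage 12 of 5ar3 stood at 0.33 on chromosome 15, and the other 5 FS libraries lay between -0.09 and -0.004. Cdh1 and Nkd1 lie on chromosome 8, Nodal, Lgr5 and Col18a1 on chromosome 10, and Slc38a4, Krt8 and Wnt7b on chromosome 15. Their FS minus AF differences were larger than the shifts of these 3 chromosomes, and Cdh1 and Nkd1 did not pass.

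The AFX cultures share the EpiSC state but, as the medium name is read, also the Wnt inhibitor of the FS medium. They are also another line, AFX6, so medium and line cannot be told apart between AFX and AF. The median log2 ratio of Y genes to the FS mean was -2.84 in AFX and -0.14 in AF. The difference of AFX from AF32 is set beside that of FS. Both differences use the same AF libraries, so they are not independent. Over all genes 2.83% were lower and 1.43% higher in AFX than in AF. Of 15 streak genes 5 were lower in AFX, and of 13 endoderm genes none was, with 2 genes of each list on chromosome 11. T was at 0.644 to 12.99 CPM in AFX and differed from AF by -3.99 (adjusted p = 0.0208), against -6.44 for FS. Mixl1 differed by -4.01 (adjusted p = 0.002) against -6.46, Sp5 by -5.18 (adjusted p = 0.000383) against -6.68, and Axin2 by -2.05 (adjusted p = 0.00107) against -1.52. Cer1 spread from 0.407 to 91.0 CPM over the AFX passages, and its difference from AF of -2.99 did not pass (adjusted p = 0.231). Of the Nodal genes, 1 of 4 tested ligands and 1 of 5 inhibitors were lower in AFX than in AF, and none was higher. None of the 5 tested receptors and coreceptors was called between AFX and AF. The coreceptor gene Tdgf1 was at 171 to 230.04 CPM in AFX (-0.26 from AF, adjusted p = 0.926). The inhibitor gene Lefty1 was at 60.6 to 181 CPM (-0.35, adjusted p = 0.879). FS minus AFX was -3.98 for Tdgf1 and -3.60 for Lefty1 (adjusted p = 0.0031 and 0.00312), so FS was lower than either EpiSC line. Of the genes higher in FS, Tspan6, Gatm and Slc38a4 were also higher in AFX than in AF (5.30, 4.89 and 4.27, adjusted p = 5.09e-05, 1.41e-07 and 5.09e-05), and FS minus AFX did not pass for them (adjusted p = 0.582, 0.478 and 0.0981). Nnat and Wdr86 were intermediate: AFX differed from AF by 4.21 and 4.18 (adjusted p = 0.00726 and 0.000483), and FS from AFX by 5.72 and 4.36 (adjusted p = 1.02e-05 and 1.19e-05). H2-Q6 did not differ from AF in AFX past the threshold (0.90, adjusted p = 0.73).

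Both FS lines carried the main difference from AF32. Against AF, 10 of 15 tested streak genes were lower in 5ar1 and 9 in 5ar3, and 11 and 8 of 13 endoderm genes. These counts include the 2 chromosome 11 genes of each list. Over all genes, 9.4% were lower in 5ar1 than in AF and 8.67% in 5ar3. T differed by -7.93 in 5ar1 and -5.69 in 5ar3 (adjusted p = 0.000167 and 0.000672), and Lefty1 by -3.49 and -4.62 (adjusted p = 0.006 and 0.00142). The line difference of both did not pass (5ar1 minus 5ar3 -2.25 and 1.13, adjusted p = 0.271 and 0.452). Nodal differed by -1.16 in 5ar1, which did not pass (adjusted p = 0.107), and by -3.27 in 5ar3 (adjusted p = 0.000436), and the lines differed from each other by 2.12 (adjusted p = 0.0274). Pou5f1 was higher in 5ar1 than in AF (0.92, adjusted p = 0.00282) and not past the threshold in 5ar3 (-0.20, adjusted p = 0.53). Within lines, pairs of libraries correlated at 0.973 to 0.992 in 5ar1, 0.978 to 0.984 in 5ar3 and 0.991 to 0.993 in AF32 across genes, and FS with AF at 0.952 to 0.963.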

How the data were processed

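RNA of 16 mouse cultures was sequenced, and the deposited table holds raw read counts per gene, which the authors made with Trim Galore, TopHat2 2.1.0 and featureCounts 1.5.0 on mm10, per the submitters' processing notes. The strand setting and the annotation release are not given in the sources used here. The table has 34042 rows; 6 columns of per-sample values match no sample and were not used. Coordinates are those of GENCODE release 21 for mouse on GRCm38 (mm10), which matched 33860 identifiers.

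Genes were kept by filterByExpr over the 4 groups, scaled by TMM and tested with edgeR 4.0.16 (R 4.3.3) by the robust quasi-likelihood test, with 1 mean per group over all 16 libraries. P-values were adjusted by the Benjamini-Hochberg method over 18555 genes. Standard errors were derived from the fold change and its F statistic. The genes named by size had to be called, to differ by 1 or more in log2, to reach a group mean of 10 CPM and to show no overlap between FS and AF libraries. Of these, the 12 most changed in each direction outside chromosome 11 and the 5 most changed on it were named. Genes of 37 lists (429 genes) could also be named. The comparison, lists and tests were chosen with earlier results of these data known. Chromosome levels used genes with a mean of at least 5 CPM and a pseudocount of 1 CPM. For genes with 1 to 3 counts in a group, a ratio with a 95% interval is given, which covers counting error only. On simulated counts, the fit recovered 63 of 100 genes changed 2-fold and 94 of 100 changed 4-fold, with 3 false calls over the 18164 genes tested. The simulated libraries were independent draws without a difference between lines, and the changed genes had a mean of at least 5 CPM. These figures therefore do not cover the line structure of the real libraries or genes at lower levels. Alternatives were other scalings and filters, DESeq2 1.42.0, other sets of libraries, single lines, passage as a covariate and chromosome 11 offsets, of which the offset per stretch was added after seeing the data. The values of 3 list genes are not reported here, and the counts over their lists include them.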

Additional observations from a re-analysis of the deposited data

Results flagged for a closer look

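Of 120 named genes with at least 1 CPM in an FS library, 11 had 1 FS library far from the other 5, with a gap to its nearest neighbour, as a share of the range of the 6 libraries, above Dixon's 95% critical value. Chance alone flags about 1 in 20 such groups. Passage 10 of 5ar1 was the highest FS library for Dusp4 (0.669 of the range) and Col18a1 (0.647 of the range). Passage 14 of 5ar1 was the highest FS library for Wnt3 (0.862 of the range). Passage 12 of 5ar3 was the highest FS library for Fgf8 (0.679 of the range), Lgr5 (0.768 of the range), Wnt11 (0.689 of the range) and Scd1 (0.666 of the range). Passage 12 of 5ar3 was the lowest FS library for Nnat (0.661 of the range). Passage 4 of 5ar3 was the highest FS library for Acvr2a (0.667 of the range), Wnt4 (0.790 of the range) and Nog (0.732 of the range).

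The 2 FS lines differed from each other, and so in their difference from AF32, for 17 of 143 named genes. Differences are 5ar1 minus 5ar3 in log2, by edgeR's quasi-likelihood test adjusted over all tested genes. Over all tested genes 3.88% differed between the lines. The named genes were chosen, so their count is not a rate for all genes. Line 5ar1 was above 5ar3 for H2-Q6 (1.83, adjusted p = 0.00703), Nodal (2.12, adjusted p = 0.0274), Pou5f1 (1.12, adjusted p = 0.00262), Cdh1 (2.51, adjusted p = 8.27e-05), Krt8 (1.65, adjusted p = 0.00696) and Rab25 (6.81, adjusted p = 3.22e-07). Line 5ar1 was below 5ar3 for Sez6 (-1.88, adjusted p = 0.0172), Pdgfra (-2.58, adjusted p = 0.0487), Foxa2 (-4.34, adjusted p = 0.037), Tnfrsf19 (-1.83, adjusted p = 0.0309), Fgfr1 (-0.856, adjusted p = 0.0412), Sox1 (-4.27, adjusted p = 0.000885), Six3 (-5.89, adjusted p = 0.000772), Lhx2 (-3.64, adjusted p = 0.000484), Zeb2 (-2.4, adjusted p = 0.000885), Insig1 (-6.3, adjusted p = 2.13e-06) and Scd1 (-4.83, adjusted p = 7.1e-06).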

How the results depend on the processing

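Leaving out 1 library gave 1799 to 3464 calls over all genes, 1407 to 2893 outside chromosome 11 and 382 to 571 on it. Tested against a log2 change of 1, the counts were 682, 601 and 81. On chromosome 11, an offset for the whole chromosome gave 343 calls, and one for each stretch, chosen after seeing the data, gave 214. The median difference on chromosome 11 was -0.44 with 5ar3 alone, -0.42 with TMM factors computed without that chromosome, -0.31 with no low-count filter and -0.30 with total counts, and -0.42 to -0.38 when 1 library was left out. Of 112 named genes called, 82 were called under every setting other than single lines and chromosome 11 offsets, and 13 were lost in a fit without 1 library. Directions turned as follows, with the cause not tested. With 5ar1 alone the differences were -0.16 for Fgfr1, -2.45 for Sox1, -1.80 for Six3, 0.0213 for Cdh1, -1.45 for Zeb2, -1.12 for Insig1 and -1.16 for Scd1. With 5ar3 alone they were -0.17 for Trh, -0.20 for Pou5f1 and -5.54 for Rab25. With a mean per line they were -0.31 for Sox1, -2.13 for Rab25 and -0.25 for Zeb2, and with passage as a covariate 0.0813 for Lef1 and -0.59 for Zeb2. With 1 library left out they ran from -0.12 to 0.55 for Rab25 and from -0.10 to 0.39 for Zeb2. With its stretch taken out Trp53 was at -0.0342. Total counts moved the median of all genes by 0.09. Depth limits genes with few counts, whose ratios carry the counting intervals given. No paired analysis was possible because replicate numbers follow accession order and pair no libraries.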
